A study of Homo sapiens with 19 samples.

Results

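A set of 9 named genes of blood coagulation and plasminogen activation were followed in THP-1 macrophages with and without vit C. They were PROC, F2R, F3, F13A1, PROS1, THBD, SERPINB2, PLAU and PLAUR, taken by their names on the array, and these 9 of the 31033 gene names on the array were measured by 12 of its 50238 probes. THP-1 is a human acute monocytic leukaemia line that becomes adherent and macrophage-like with phorbol myristate acetate (PMA), so a single line stands here for macrophages. All cells had been differentiated with 30 nM PMA. Flasks then stayed untreated (UT) or received 0.1 mM vit C, and RNA was taken 8, 24, 48 or 96 h later. UT cells were measured on 2, 3, 2 and 3 arrays at these time-points and vit C-treated cells on 3, 2, 2 and 2. Each array held RNA of a flask of its own, and flasks whose RNA was degraded had been set aside, so that q values rest on the spread between flasks of 1 cell line.

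Coagulation begins when tissue factor (F3) on a cell surface binds factor VII, and it ends with fibrin that factor XIII (subunit A, F13A1) cross-links. Thrombin, the enzyme made on the way, signals to cells through its receptor PAR1 (F2R). Bound to thrombomodulin (THBD), thrombin instead activates protein C (PROC), which with its cofactor protein S (PROS1) switches off coagulation factors. Urokinase (PLAU), held at the cell surface by its receptor (PLAUR), turns plasminogen into plasmin, the protease that dissolves fibrin, and PAI-2 (SERPINB2) inhibits urokinase. Monocytes and macrophages are known sources of tissue factor, urokinase and its receptor, PAI-2 and factor XIII A. Protein C is best known as a product of the liver.

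In vit C-treated cells, PROC was lower than in UT cells at 24, 48 and 96 h, by 10.6-fold at the last, and F2R was lower at 48 and 96 h. SERPINB2 was higher at 24 h and, by a second probe, at 48 h, PLAU at 48 h (2.75-fold) and THBD at 96 h (2.58-fold). F3, PLAUR and PROS1 had no called vit C effect, and F13A1 was not above background on any array. A gene is called here where a probe differed by at least 1 on the log2 scale with a Benjamini-Hochberg q of at most 0.05 in a limma fit over all probes. All calls at 24 and 48 h were lost when the slide was added to the fit as a fixed block, as given below. The calls at 96 h could not be checked in this way. The vit C arrays at 96 h had a slide and a scan of their own, so slide, scan and treatment cannot be told apart there. Normexp background correction ended the PROC calls at 24 and 48 h and the F2R and SERPINB2 calls at 48 h, and brought PROC at 96 h from -3.40 to -1.93 on the log2 scale.

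The promoters of PROC, F3, SERPINB2 and PLAU are shown. SERPINB2 and PLAU had calls higher with vit C and PROC had calls lower. F3 had no called vit C effect and was taken because it has the most motif matches of the members. The promoters are RefSeq sequences of GRCh38.p14, from 250 bases before to 50 bases after a transcription start. Of the 9 members, 7 have entries, with 9 starts in all, since PROC and PLAU have 2 each and 1 of each is printed. Capitals mark matches on either strand. The motif searched for the AP-1 site was TGANTCA. The one for the TATA box was TATAAA and the one for the GC box was GGGCGG. The cAMP response element (CRE) was searched as TGACGTCA. The marked matches do not overlap.
PROC (chr2:127418177-127418476, plus strand): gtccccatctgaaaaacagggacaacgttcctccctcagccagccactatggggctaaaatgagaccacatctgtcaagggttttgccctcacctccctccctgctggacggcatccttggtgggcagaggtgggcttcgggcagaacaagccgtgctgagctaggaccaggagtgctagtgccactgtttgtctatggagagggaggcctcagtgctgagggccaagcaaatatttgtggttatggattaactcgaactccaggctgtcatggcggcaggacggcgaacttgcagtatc
F3 (chr1:94541710-94542009, minus strand): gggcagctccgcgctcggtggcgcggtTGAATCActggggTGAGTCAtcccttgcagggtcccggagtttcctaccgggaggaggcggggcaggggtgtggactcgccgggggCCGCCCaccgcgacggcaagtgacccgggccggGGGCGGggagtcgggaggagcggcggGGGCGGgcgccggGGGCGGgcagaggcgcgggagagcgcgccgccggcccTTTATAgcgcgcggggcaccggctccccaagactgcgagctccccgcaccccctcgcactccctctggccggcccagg
SERPINB2 (chr18:63887455-63887754, plus strand): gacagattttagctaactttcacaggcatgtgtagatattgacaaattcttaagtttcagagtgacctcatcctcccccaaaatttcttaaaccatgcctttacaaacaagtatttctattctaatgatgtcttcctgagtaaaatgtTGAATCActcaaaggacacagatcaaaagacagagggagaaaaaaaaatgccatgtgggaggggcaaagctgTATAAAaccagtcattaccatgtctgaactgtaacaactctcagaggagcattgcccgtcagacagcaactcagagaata
PLAU (chr10:73910882-73911181, plus strand): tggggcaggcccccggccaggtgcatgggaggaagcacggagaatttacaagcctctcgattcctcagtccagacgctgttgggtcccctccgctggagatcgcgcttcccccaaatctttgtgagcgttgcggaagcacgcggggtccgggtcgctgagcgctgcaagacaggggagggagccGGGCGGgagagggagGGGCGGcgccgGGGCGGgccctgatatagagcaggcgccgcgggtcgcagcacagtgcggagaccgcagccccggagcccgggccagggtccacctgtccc

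Among the 35116 promoters of this length, 7.71% hold the AP-1 letters, 11.5% the TATA box, 45.0% the GC box and 1.85% the CRE. Of the 9 member promoters 3 hold the AP-1 letters, 2 the TATA box, 3 the GC box and 0 the CRE. F3 has AP-1 matches that begin at -223 and -210 relative to the start, SERPINB2 has one at -102 and PLAUR one at -186. TATA box matches lie at -28 in F3, on the opposite strand, and at -30 in SERPINB2. The printed PLAU start is preceded by 3 GC boxes, at -66, -51 and -40. The PLAU window that is not printed has none of the 4 motifs, and PROC has none in either window. These are matches of letters only. In the same build the gene PROC spans chr2:127418427-127429242, F3 chr1:94529173-94541759, SERPINB2 chr18:63887705-63903888 and PLAU chr10:73908832-73917494. F2R spans chr5:76716126-76735770, THBD chr20:23045633-23049672, PROS1 chr3:93873051-93973896, F13A1 chr6:6144084-6320662 and PLAUR chr19:43646095-43670169.

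All values below are log2 of the scanner's processed signal minus the array's 75th percentile (log2 normalized level), and the probe with the highest mean stands for a gene with several. Levels of different members come from different probes and are not compared. The marker sums given below do add levels of different probes, so the brightest probe weighs most in them. RNA came from whole cultures, so fewer expressing cells and less RNA per cell cannot be told apart. The 75th percentile of the signal was 296.8 to 638.5 on all other arrays and 806.3 and 923.7 on the vit C arrays at 96 h. UT and vit C arrays of one time-point never shared a slide. All UT arrays at 8, 24 and 48 h lay on the same slide, which only UT arrays occupied, and 2 of the UT arrays at 96 h lay on the slide of the vit C arrays at 8 and 24 h. The vit C arrays at 96 h had a slide and a scan of their own, so at 96 h slide, scan and treatment cannot be told apart.

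**Figure D1:**
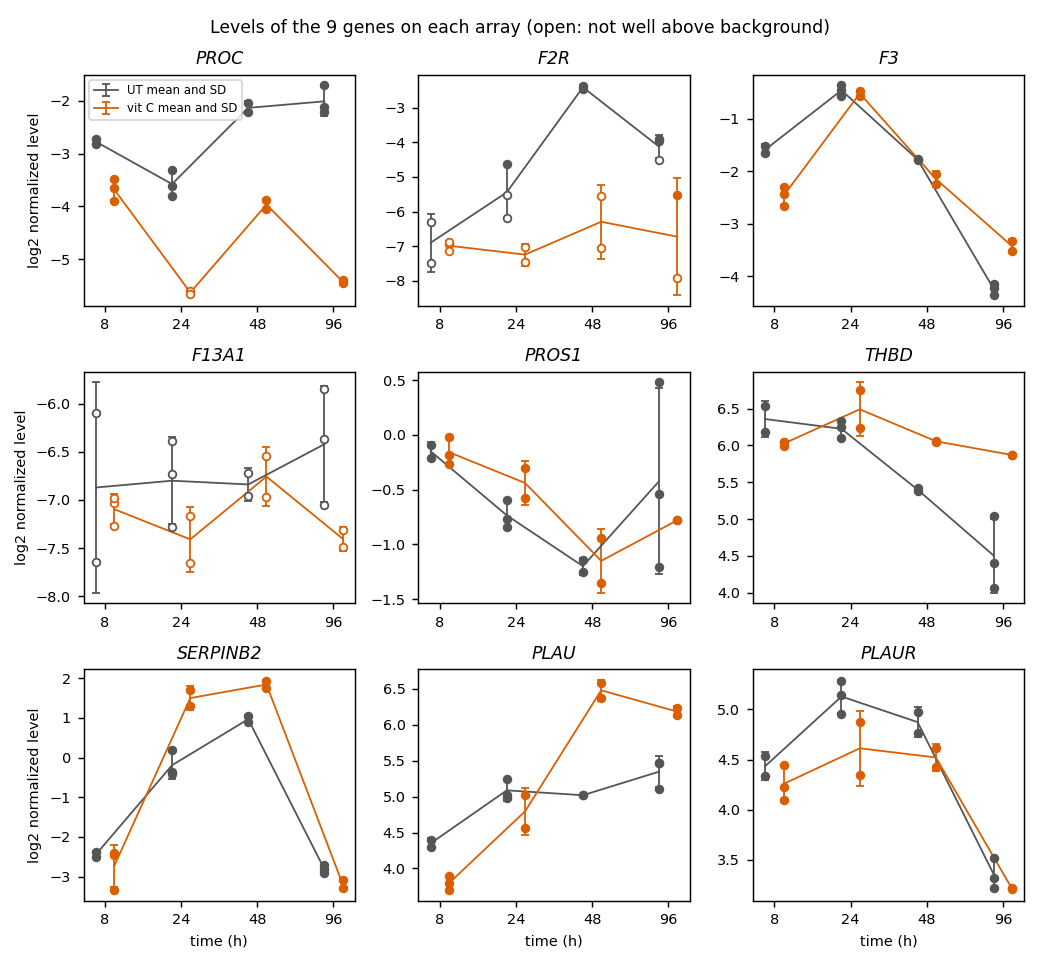
Log2 normalized level of each gene (y axis) against time in h (x axis, time-points evenly spaced) on every array, grey for UT and orange for vit C, with lines through group means and SD bars. Filled points are arrays on which the probe was well above background, open points arrays on which it was not. The PROC arrays with vit C lie below the UT arrays at every time-point, while the F3 arrays with vit C lie below the UT arrays at 8 and 48 h and above them at 96 h.

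PROC encodes protein C, the zymogen of the anticoagulant protease. In UT cells its level was -2.82 and -2.73 at 8 h, -3.80, -3.32 and -3.61 at 24 h, -2.05 and -2.22 at 48 h, and -2.12, -2.22 and -1.71 at 96 h. In vit C-treated cells it was -3.89, -3.66 and -3.48 at 8 h, -5.59 and -5.66 at 24 h, -3.89 and -4.05 at 48 h, and -5.39 and -5.45 at 96 h. Every vit C array lay below every UT array of its time-point, and in UT cells the lowest mean was that at 24 h. The probe was dim, with a processed signal of 7.90 to 195.6, and was well above background on 17 of 19 arrays, neither vit C array at 24 h among them.

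The vit C effect on PROC at 8 h was -0.90 on the log2 scale (SE 0.21, q = 0.0722), short of both thresholds. At 24 h it was -2.05 (SE 0.21, q = 0.000249), and because neither vit C array was above background the change is stated as at least 2.97-fold lower. At 48 h the effect was -1.83 (SE 0.23, q = 0.000812), 3.55-fold lower, and at 96 h it was -3.40 (SE 0.21, q = 9.63e-07), 10.6-fold lower. The 4 effects differed among themselves (limma F test, q = 0.00543), and their average was called (q = 9.13e-08) but has no exact size, since it includes the 24 h arrays at background. Normexp correction ended that call. With the slide as a fixed block the effect was -2.20 (q = 0.0594) at 24 h and -1.90 (q = 0.0796) at 48 h. After normexp background correction it shrank to -0.62 (q = 0.107) at 24 h, -0.65 (q = 0.0984) at 48 h and -1.93 (q = 1.91e-06) at 96 h.

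The order of the PROC group means ran from UT at 96 h (-2.01 ± 0.27, SD, n = 3) and 48 h (-2.14 ± 0.12, n = 2), whose arrays overlapped, through UT at 8 h (-2.78 ± 0.07, n = 2) to UT at 24 h (-3.58 ± 0.24, n = 3). UT at 24 h overlapped with vit C at 8 h (-3.68 ± 0.21, n = 3), and the latter with vit C at 48 h (-3.97 ± 0.11, n = 2). Lowest were the vit C arrays at 96 h (-5.42 ± 0.04, n = 2) and those at 24 h, which were not above background and so have no order against 96 h. In UT cells PROC at 96 h was 0.76 above 8 h (SE 0.21, q = 0.0158), short of the fold threshold. Markers of hepatocytes, the usual source of protein C, summed to 1.34 to 1.73 times the 75th percentile on the UT arrays and 0.83 to 0.88 on the vit C arrays at 96 h. At 48 h the sums were 1.68 to 1.77 and 1.13 to 1.21, also lower with vit C, and at 24 h they were 0.98 to 1.14 and 1.52 to 1.54, higher with vit C. Of these 6 markers ALB, AHSG and SERPINA1 were above background on all arrays and APOH was on none. At 96 h the vit C effect was -1.14 on SERPINA1, the brightest of them, and -2.09 on APOA1 (-1.35 at 48 h). It was -1.76 on TTR, -1.18 on APOH, -0.01 on ALB and 0.26 on AHSG. APOA1 was above background on 11 arrays and TTR on 1, so the TTR and APOH values are those of probes at or near background. The part of these markers in the PROC result was not tested.

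PROS1, the cofactor of activated protein C, was read by 3 probes that went in different directions. The brightest probe was well above background on all 19 arrays and showed vit C effects of -0.01, 0.30, 0.05 and -0.36 at 8, 24, 48 and 96 h, none of them called (95% interval -0.74 to 0.72 at 8 h and -1.09 to 0.38 at 96 h). Over the 19 arrays its level correlated with those of the other PROS1 probes at r = 0.49 and 0.43, and these with each other at r = 0.15, given as a description of arrays that share treatments and slides. At 48 h the second probe gave -0.78 and the dimmest, above background on 9 arrays, gave 2.31, so PROS1 has no q there. The UT arrays at 96 h were spread widely, at -1.21, -0.54 and 0.48, and the lowest of them was the one on the slide of the earlier UT arrays.

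THBD encodes thrombomodulin. UT levels were 6.19 and 6.53 at 8 h, 6.34, 6.10 and 6.25 at 24 h, 5.42 and 5.38 at 48 h, and 4.40, 4.06 and 5.05 at 96 h. With vit C they were 6.04, 5.99 and 6.04 at 8 h, 6.23 and 6.75 at 24 h, 6.06 and 6.05 at 48 h, and 5.87 and 5.88 at 96 h. UT arrays were lower at 48 h and lowest at 96 h, while the vit C arrays stayed between 5.87 and 6.75. The vit C arrays lay below the UT arrays at 8 h and above them at 48 and 96 h, without overlap. The probe was bright, with signals of 7645 to 61990.

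The vit C effect on THBD was -0.33 at 8 h (q = 0.645), 0.26 at 24 h (q = 0.551), 0.66 at 48 h (SE 0.27, q = 0.239) and 1.37 at 96 h (SE 0.25, q = 0.0056), the last being 2.58-fold higher. It was not called without either of the vit C arrays at 96 h (q = 0.0626 and 0.0618), with the effect at 1.37 and 1.36. The difference among the 4 effects did not pass (q = 0.0993), and the average was 0.49 (SE 0.13, q = 0.0227). That difference did pass after quantile normalization, after normexp correction and without UT replicate 3 at 96 h. It did not with the slide as a random block or with the replicate block. Within UT cells THBD fell by 1.86 on the log2 scale from 8 to 96 h (SE 0.25, q = 8.66e-05), and was 0.96 lower at 48 h than at 8 h (q = 0.0387), short of the fold threshold. In vit C-treated cells the difference of 48 h over 8 h was 0.03 (95% interval -0.50 to 0.57). Thrombomodulin is also an endothelial protein, and of 5 endothelial markers PECAM1 and CLDN5 were above background on all arrays and CDH5 was on none. Their summed level was 40.2 to 60.4 on the UT arrays and 24.6 to 25.8 on the vit C arrays at 96 h, a sum that PECAM1 (log2 -0.96) makes up nearly alone. CLDN5 was -0.15, while KDR, TEK and CDH5, dim or at background, were 1.00, 0.81 and 0.24, and the part of these markers was not tested.

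F2R encodes PAR1, the main thrombin receptor. Its probe was well above background on 6 of 19 arrays. In UT cells the level was -7.50 and -6.31 at 8 h, -5.51, -4.63 and -6.19 at 24 h, -2.46 and -2.36 at 48 h, and -4.50, -3.97 and -3.90 at 96 h. With vit C it was -6.94, -6.88 and -7.15 at 8 h, -7.02 and -7.47 at 24 h, -7.05 and -5.54 at 48 h, and -7.92 and -5.53 at 96 h. The 48 h UT arrays stood out as the highest, while on the vit C arrays the gene was above background only once, at 96 h.

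In UT cells F2R was at least 7.19-fold higher at 48 h than at 8 h (log2 difference 4.49, SE 0.68, q = 0.000631). The bound for 96 h against 8 h was 2.19-fold (log2 2.78, q = 0.00522), a call that was lost without UT replicate 1 at 8 h, with the slide as a fixed block, after normexp correction and with dim probes left out. The same 48 h against 8 h comparison in vit C-treated cells gave 0.69 (SE 0.63, q = 0.522), with no array above background in either group. The vit C effect was -0.09 at 8 h with both groups at background, -1.80 at 24 h (SE 0.63, q = 0.163), -3.88 at 48 h (SE 0.68, q = 0.00776) and -2.60 at 96 h (SE 0.63, q = 0.0257). At 48 h this is at least 4.71-fold lower, and at 96 h no fold is given, since 2 of 3 UT and 1 of 2 vit C arrays were above background and the vit C arrays lay far apart. The effects were not shown to differ between time-points (q = 0.151), and their average was called (q = 0.000822), with no exact size given because most groups in it were at background. Normexp correction ended that call too. The call at 48 h was lost without 1 UT array (replicate 2, q = 0.0627) or 1 vit C array (replicate 1, q = 0.0698), and with the slide as a block (-5.20, q = 0.0896). The call at 96 h was lost without UT replicate 2 (q = 0.064) or vit C replicate 1 (-1.41, q = 0.189), and without vit C replicate 2 the effect was -3.79 (q = 0.00759). After normexp correction the effect was -0.90 at 48 h (q = 0.0177) and -1.17 at 96 h (q = 0.000556).

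F3, tissue factor, had its highest levels at 24 h under both treatments. UT levels were -1.66 and -1.52 at 8 h, -0.45, -0.37 and -0.56 at 24 h, -1.79 and -1.77 at 48 h, and -4.15, -4.36 and -4.21 at 96 h. Vit C levels were -2.31, -2.66 and -2.43 at 8 h, -0.57 and -0.48 at 24 h, -2.04 and -2.25 at 48 h, and -3.33 and -3.52 at 96 h. The vit C arrays lay below the UT arrays at 8 and 48 h, among them at 24 h, and above them at 96 h. UT cells had 6.29-fold less F3 at 96 h than at 8 h (log2 -2.65, SE 0.17, q = 1.11e-07).

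The vit C effect on F3 was -0.88 at 8 h (SE 0.17, q = 0.0408), -0.06 at 24 h (95% interval -0.42 to 0.30), -0.37 at 48 h (q = 0.356) and 0.81 at 96 h (SE 0.17, q = 0.0127). The effects at 8 and 96 h passed the q threshold but not the fold threshold, so no time-point had a call for F3. The 4 effects differed among themselves (F test, q = 0.0176), a call that was lost after normexp correction and without UT replicate 2 at 8 h or either vit C array at 96 h. After normexp correction the effect at 96 h turned to -0.16 (q = 0.429). F13A1, the fibrin cross-linking factor XIII A chain, had signals of 2.64 to 7.72 and was above background on 0 of 19 arrays, so no fold is given.

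PLAU encodes urokinase. UT levels were 4.40 and 4.30 at 8 h, 5.25, 5.02 and 4.99 at 24 h, 5.02 and 5.02 at 48 h, and 5.47, 5.10 and 5.47 at 96 h. With vit C they were 3.89, 3.70 and 3.79 at 8 h, 4.57 and 5.02 at 24 h, 6.58 and 6.38 at 48 h, and 6.23 and 6.13 at 96 h. The vit C arrays were below the UT arrays at 8 h, overlapped with them at 24 h and were above them at 48 and 96 h. In vit C-treated cells the level rose 6.43-fold from 8 to 48 h (log2 2.68, SE 0.19, q = 3.44e-07), against 0.67 in UT cells (SE 0.21, q = 0.0587).

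The vit C effect on PLAU was -0.56 at 8 h (SE 0.19, q = 0.221), -0.29 at 24 h (q = 0.389), 1.46 at 48 h (SE 0.21, q = 0.00217) and 0.83 at 96 h (SE 0.19, q = 0.0204). Only the 48 h effect, 2.75-fold, was called, and the 96 h effect was short of the fold threshold, though quantile normalization brought it to 1.11 (q = 0.00273). The 4 effects differed among themselves (F test, q = 0.00701), and with the slide as a block the 48 h effect was 1.75 (q = 0.0758). Urokinase is also made by fibroblasts. The 5 fibroblast markers, of which DCN was above background on 14 arrays and COL1A2 on none, summed to 0.45 to 0.53 on the UT and 2.26 to 2.32 on the vit C arrays at 48 h. At 96 h their sum was 0.69 to 1.28 and 4.41 to 4.99. On the log2 scale the vit C effects at 48 and 96 h were 2.35 and 2.48 on DCN, the brightest, 3.38 and 4.65 on LUM and 1.79 and 0.71 on COL1A1. They were -1.68 and -1.46 on COL3A1 and 0.06 and 0.01 on COL1A2. COL1A1 was above background on 5 arrays, LUM on 4 and COL3A1 on 2. The part of these markers in the PLAU result was not tested.

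PLAUR is the urokinase receptor. Its UT mean was 4.44 ± 0.14 (SD, n = 2) at 8 h, 5.13 ± 0.16 (n = 3) at 24 h, 4.87 ± 0.15 (n = 2) at 48 h and 3.36 ± 0.16 (n = 3) at 96 h. With vit C the means were 4.26 ± 0.18 (n = 3), 4.61 ± 0.37 (n = 2), 4.52 ± 0.14 (n = 2) and 3.21 ± 0.01 (n = 2). The vit C effects were -0.18, -0.52, -0.35 and -0.14, with q values from 0.216 to 0.755 and a 95% interval of -0.95 to -0.08 at 24 h. In UT cells PLAUR fell by 1.08 on the log2 scale from 8 to 96 h (SE 0.20, q = 0.00139), a call that was lost without UT replicate 1 at 8 h.

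SERPINB2 (PAI-2) had the widest swing over time of the genes above background on all arrays, 5.26 on the log2 scale. UT levels were -2.51 and -2.38 at 8 h, 0.20, -0.42 and -0.36 at 24 h, 1.04 and 0.89 at 48 h, and -2.70, -2.82 and -2.91 at 96 h. With vit C they were -2.45, -3.34 and -2.42 at 8 h, 1.29 and 1.71 at 24 h, 1.92 and 1.76 at 48 h, and -3.09 and -3.29 at 96 h. Both treatments rose to 48 h and were low again at 96 h, with the vit C arrays above the UT arrays at 24 and 48 h and below them at 96 h. From 8 to 48 h the rise was 3.41 in UT (SE 0.30, q = 5.92e-06) and 4.58 in vit C-treated cells (SE 0.27, q = 7.31e-08).

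The vit C effect on SERPINB2 was -0.29 at 8 h, where its 2 probes had opposite signs, 1.69 at 24 h (SE 0.27, q = 0.00863, 3.23-fold), 0.87 at 48 h (SE 0.30, q = 0.142) and -0.38 at 96 h (q = 0.4). A dimmer second probe, whose level correlated with the first at r = 0.96 over the 19 arrays, gave 1.07 at 24 h (q = 0.146) and 1.57 at 48 h (SE 0.39, q = 0.0398), so that the gene is called at both time-points by different probes. The 48 h call was lost without any 1 of the 4 arrays compared. The effects differed between time-points by the brighter probe (q = 0.0352) and not by the dimmer one (q = 0.147), and with 1 array left out in turn this call was lost in 13 of 19 fits. The 24 h call was lost without vit C replicate 2 (1.48, q = 0.119) and with the slide as a block (1.85, q = 0.263).

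**Figure D2:**
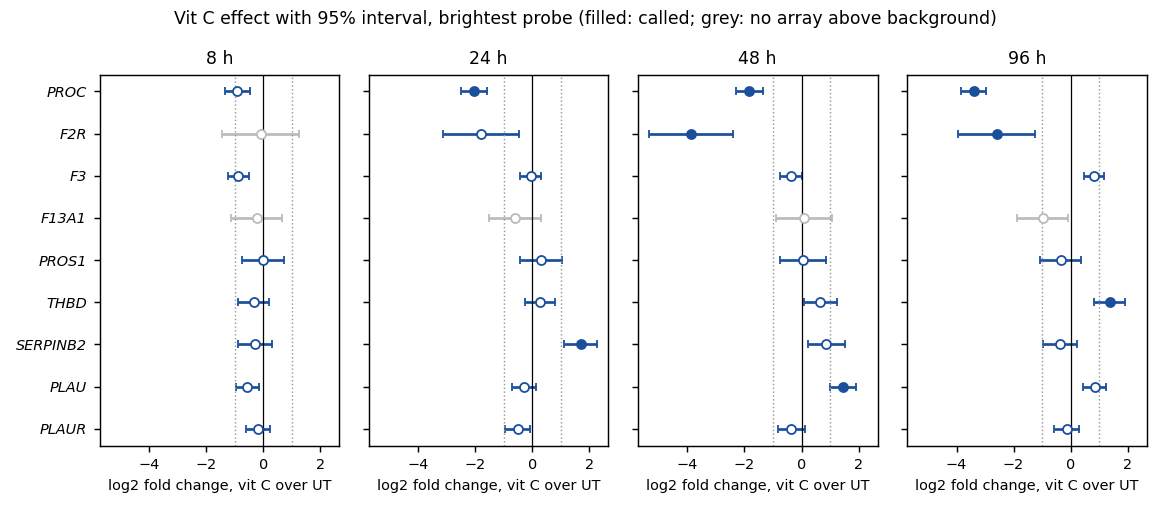
Log2 fold change of vit C over UT (x axis) with its 95% interval from the limma fit for each of the 9 genes (y axis, brightest probe) in 1 panel per time-point. Filled points are called, open points are not, grey marks genes with no array above background in either group, and dotted lines stand at a log2 fold change of 1 in each direction. PROC is left of 0 at all 4 time-points, and SERPINB2, PLAU and THBD are filled to the right at 24, 48 and 96 h in turn.

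The numbers of the 9 genes called at 8, 24, 48 and 96 h were 0, 2, 4 and 3. Of all genes tested, 0.553%, 1.67%, 3.64% and 12.8% were called. At 8 h no member passed an unadjusted p of 0.05 together with the fold threshold in limma either, the methods' t-test called 0, and 3 members had an unadjusted limma p of at most 0.05 at a smaller fold. At 24 h PROC was lower and SERPINB2 higher, where 0.839% of genes were called lower and 0.835% higher. At 48 h PROC and F2R were lower (1.53% of all genes) and PLAU and SERPINB2 higher (2.10%). At 96 h PROC and F2R were lower (10.0%) and THBD was higher (2.73%). These shares of all genes moved with the scaling. Lower genes made up 78.6% of the called genes at 96 h here, 49.1% where only detected probes set the percentile, and 44.0% when arrays were quantile normalized. At 24 h the share was 50.1% here and 34.4% when arrays were quantile normalized. PROC, F2R and THBD were called at 96 h under all of these scalings. PROC and F2R were called for the average effect (3.48% of genes), and PROC, F3, SERPINB2 and PLAU for a difference between time-points (1.35%). Normexp correction left neither average call, and the replicate block left PROC and PLAU for the difference. The median effect of the 9 genes was -0.29, -0.29, 0.05 and -0.36 at the 4 time-points, against -0.05, -0.13, -0.01 and -0.15 over all genes. Normexp correction moved the median of all genes to -0.23 at 24 h and -0.40 at 96 h.

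UT and vit C arrays did not overlap for 4, 5, 7 and 7 of the 9 genes at 8, 24, 48 and 96 h, where 38.9%, 30.3%, 50.7% and 36.9% of all genes had groups that did not overlap. For the change with time in UT cells, 3 members were called at 48 h against 8 h (8.89% of genes) and 4 at 96 h against 8 h (16.1%). The former were F2R and SERPINB2, both higher, and PROS1, lower by its dimmest probe only. The latter were F2R, higher, and F3, THBD and PLAUR, lower. In vit C-treated cells SERPINB2 and PLAU were called higher at 48 h than at 8 h (13.1%). Comparisons that share the UT 8 h arrays or the vit C 8 h arrays are not independent of each other.

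Because UT arrays at 96 h lay on 2 slides, the same group can be read on both. The mean of the arrays on the second slide minus the array on the first was 0.16 for PROC, 0.56 for F2R, -0.13 for F3, 0.15 for THBD, -0.16 for SERPINB2, -0.19 for PLAU and 0.05 for PLAUR on the log2 scale. For PROS1 it was 1.18, wider than any vit C effect of the same probe, and for F13A1, at background, -0.86. No SD goes with these differences, since the first slide held 1 array of the group. In the fit with the slide as a block, vit C against UT at 8, 24 and 48 h rests on these UT arrays at 96 h, and the vit C array at 48 h that had a slide to itself adds nothing. That fit called 0 members at 24 and at 48 h, where it called 20 and 138 of all genes in place of 437 and 926, while its effects for PROC, F2R, SERPINB2 and PLAU kept their direction. With the slide as a random block, with a correlation of 0.04 within a slide, PROC and SERPINB2 at 24 h, PROC, F2R, SERPINB2 and PLAU at 48 h and PROC, F2R and THBD at 96 h were all called.

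**Figure D3:**
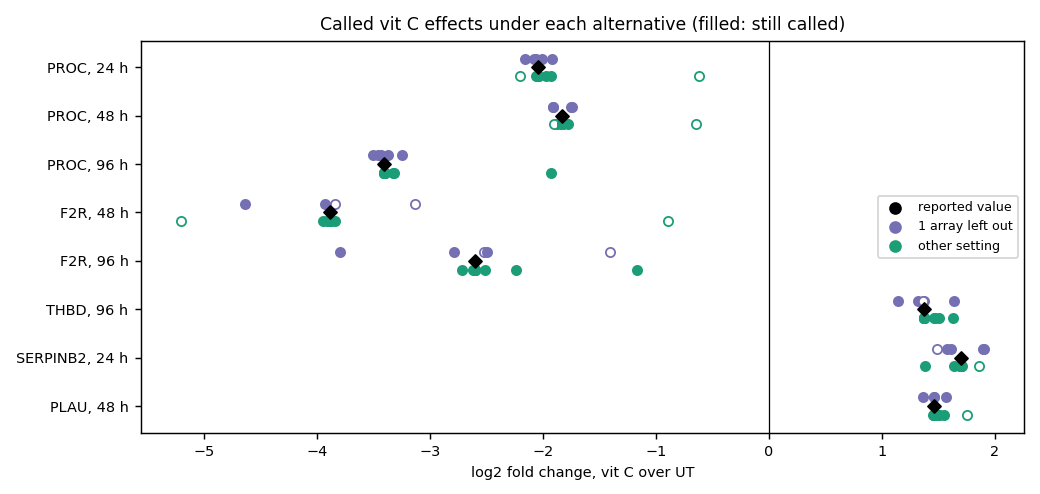
Log2 fold change of vit C over UT (x axis) for the 8 effects called by the brightest probe (y axis), with the reported value as a black diamond, fits with 1 array left out in purple and other settings in green. Filled points were called and open points were not. Every point keeps the side of 0 of its reported value, and the PROC and F2R points nearest to 0 at 48 h, at -0.65 and -0.90, come from normexp background correction.

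Of 41 further genes of the same pathways, 40 were on the array, and 22 to 26 of them were detected throughout at least 1 of the groups compared. At 8 h 0 were called. At 24 h 1 was called higher, at 48 h 2 were higher and 1 lower, and at 96 h 2 were higher and 4 lower, and the called probes of the 4 lower ones, FGA, FGG, F2RL2 and CPB2, were at background in both groups. The median effect of the 40 genes was -0.19, -0.25, 0.11 and -0.25. Of all genes tested, 12.8% were called at 96 h, so the 6 calls among these 40 genes are read as no result about the list. By role, calls at 96 h were 2 of 17 coagulation factors (both lower), 2 of 9 anticoagulants (both higher), 1 of 3 thrombin-type receptors (lower) and 1 of 11 plasminogen system genes (lower).

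SERPIND1, heparin cofactor II, which inhibits thrombin, was higher with vit C by at least 7.08-fold at 24 h (log2 3.44, SE 0.39, q = 0.00069), by 2.29 on the log2 scale at 48 h (q = 0.0111) and by at least 2.00-fold at 96 h (log2 2.50, q = 0.00209). After normexp correction SERPIND1 was called at none of these time-points and its 96 h value was -0.19 (q = 0.398), of the other sign. TFPI, the inhibitor of the tissue factor and factor VII complex, was 1.66 higher at 96 h on the log2 scale (SE 0.19, q = 0.000189), and both of its probes were called, the dimmer at background in UT cells. After normexp correction the brighter probe gave 1.06 and the gene had no q because its probes disagreed in sign. At 24 and 48 h the brightest TFPI probe gave 0.89 and 1.03, and the gene had no q because its probes disagreed in sign. PLAT, tissue-type plasminogen activator, was higher at 48 h by 1.91 on the log2 scale (SE 0.46, q = 0.0345). F12, which starts the contact pathway of coagulation, was lower at 48 h (log2 -1.13, SE 0.22, q = 0.0122). The 48 h calls of SERPIND1 and PLAT were lost without any 1 of the 4 arrays, and that of F12 without 3 of the 4. With normexp correction PLAT was 0.86 and F12 -0.75 on the log2 scale, and neither was called. With the slide as a fixed block the calls of SERPIND1 at 24 h (log2 3.63, q = 0.107) and 48 h (2.52, q = 0.281), PLAT (1.36, q = 0.731) and F12 (-0.80, q = 0.569) were lost. PROCR, the receptor that presents protein C to thrombomodulin-bound thrombin, had effects of -0.25, 0.20, -0.10 and -0.29 (q = 0.648, 0.553, 0.953 and 0.339).

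**Figure D4:**
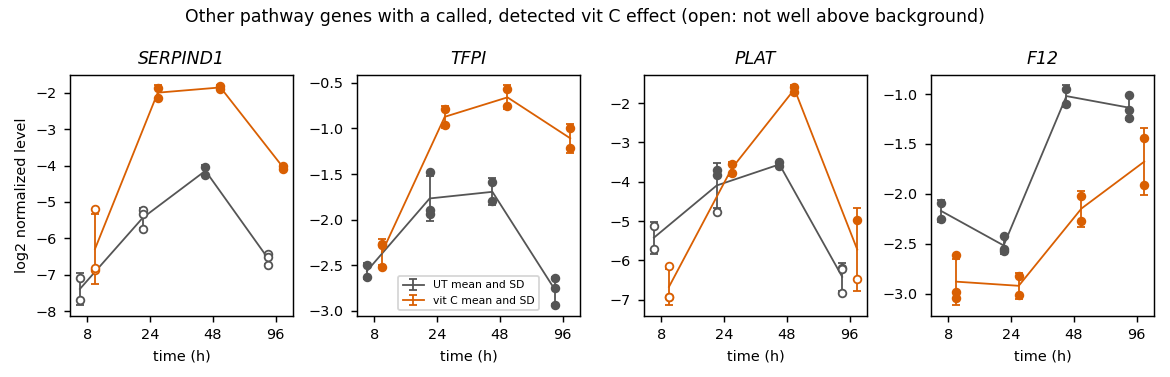
Log2 normalized level (y axis) against time in h (x axis, time-points evenly spaced) on each array for the 4 further genes called at a time-point where they were detected, grey for UT and orange for vit C, with means and SD bars. Open points are arrays not well above background. The vit C means of SERPIND1 and TFPI lie above the UT means and those of F12 below them at all 4 time-points, and those of PLAT lie below at 8 h and above at 24, 48 and 96 h. At 8 h SERPIND1 and PLAT were at background in both groups. At 96 h PLAT was above background on 1 vit C array and on no UT array, so these positions carry no direction.

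The level of each member with a called vit C effect was set against those of 23158 further detected genes over the 19 arrays, and the 3 genes with the highest Pearson r are given as a description. The arrays share time-points, treatments and slides, so r has no p. For PROC these were CNIH3 (r = 0.89), STMN3 (0.89) and ITGA7 (0.88). For F2R, CAP2 (0.89) and CPE (0.86) were among them, and for THBD they were the small nucleolar RNAs SNORD72 (0.89) and SNORA40 (0.88) and the transcript HsapiAK021459 (0.87). SERPINB2 was most like CCL1 (0.97), DACT3 (0.96) and SLC39A14 (0.95), and PLAU like SH3BP5, BCL11A and PID1 (all 0.94).

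Of 9 monocyte and macrophage markers on the array, 7 were above background on all 19 arrays, among them CD14, CD68, CSF1R and ITGAM, and the mannose receptor MRC1 was on none. Of the markers of other cells, 3 of 6 for hepatocytes, 1 of 5 for megakaryocytes and platelets, 2 of 5 for endothelium, 0 of 5 for fibroblasts, 1 of 3 for T cells and 2 of 3 for B cells were above background on all arrays. The summed macrophage markers were 454 to 484 times the 75th percentile on the UT arrays and 480 to 518 on the vit C arrays at 96 h. CSF1R and TYROBP make up most of this sum, with vit C effects of -0.07 and 0.27 on the log2 scale at 96 h. The other markers went both ways. ITGAM was -0.92 (-1.17 at 48 h), CD68 -0.08 and MRC1, at background, -1.05. LYZ was 1.17, CD163 0.56, SPI1 0.33 and CD14 0.27.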

How the data were processed

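RNA of PMA-differentiated THP-1 cells, UT or given vit C, was hybridized to 19 one-colour Agilent arrays. The authors extracted spot intensities with Agilent Feature Extraction. The file headers give 10.5.1.1 as the version of grid placement, while the paper's methods name another version of the software. The authors deposited the processed signal on a linear scale, detrended and with surrogates for low signals. The log2 values the authors deposited in the series matrix, shifted to the 75th percentile of each array, served as an alternative. Precision is limited by the 2 or 3 arrays per group.

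Here the signal of each probe, the mean over its spots, was taken to log2 with no pseudocount and shifted so that the 75th percentile of an array's spots other than controls was 0. Group means of the 8 groups were fitted with limma 3.58.1 in R 4.3.3, tested on simulated data, with q values over all probes after genes with opposing probes were removed, as in the methods. A call needed a log2 difference of 1 or more in size and a q no higher than 0.05. Where no array of a group was well above background, the fold is a lower bound set by each array's lowest detected signal. Where an array of a group of 2 was left out, the lone array was assumed to vary like the other groups. The same-numbered arrays were not paired by the labels. Genes are named as in the scanner files. Python 3.11.15 with matplotlib 3.10.9 drew the figures.

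The members, the further pathway genes, the marker lists and the rules for named genes were chosen with earlier results of these data known. Named genes are the 9 members, the further pathway genes of a fixed list and the 3 genes most alike each called member. The alternatives were the methods' t-test, quantile normalization, normexp correction (offset 50), the percentile over detected probes, dim probes left out, the slide as fixed or random block, a replicate block, the series matrix values, gene means of probes, opposing probes kept, and each array left out in turn. The further pathway genes were run through the same alternatives after the data had been seen. Some genes that these rules would name are not reported here.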

Additional observations from a re-analysis of the deposited data

Results flagged for a closer look

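The vit C effects of 4 members differed between the 4 time-points in a limma F test across the array. The q of this test was 0.00543 for PROC, whose effect ran from -0.90 at 8 h to -3.40 at 96 h on the log2 scale, and 0.00701 for PLAU, with -0.56 at 8 h and 1.46 at 48 h. It was 0.0176 for F3, with -0.88 at 8 h and 0.81 at 96 h, a call that was lost under the replicate block, in 3 of 19 fits with 1 array left out and after normexp correction, where the 96 h value was -0.16. It was 0.0352 for SERPINB2, with 1.69 at 24 h and -0.38 at 96 h. With 1 array left out in turn the SERPINB2 call was lost in 13 of 19 fits, and the replicate block ended it too. The vit C arrays at 96 h had a slide and a scan of their own, and the part of these in the differences was not tested. No group held more than 3 arrays, so no array was tested as an outlier.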

How the results depend on the processing

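For vit C against UT at a single time-point, no effect called by a member's brightest probe changed direction under the alternatives run. Other called effects were followed by counts alone. Of the further pathway genes SERPIND1 at 96 h did, at -0.19 with normexp correction. The methods' t-test with Benjamini-Hochberg adjustment called 0 members at 24, 48 and 96 h, where it called 0, 1 and 0 genes of the whole array, 0 for UT cells at 48 h against 8 h (1 gene in all) and 1 (F3) for UT cells at 96 h against 8 h (264 genes in all). It called both SERPINB2 and PLAU for vit C-treated cells at 48 h against 8 h, among 2360 genes. Without adjustment, at p up to 0.05 and the same fold, the t-test had 2, 3 and 2 members at these 3 time-points and limma 4, 5 and 3. For UT cells at 48 h the unadjusted count was 3 by either test. Normexp background correction left 1 member at 24 h (SERPINB2), 1 at 48 h (PLAU) and 0 for the average effect. The slide as a fixed block left 0 at 24 h (20 genes in all) and 0 at 48 h (138 genes in all), and could not be estimated at 96 h, for the average effect or for the difference between time-points. The cause of these changes was not tested. Normexp correction adds an offset of 50. On the vit C arrays the processed signals were 7.90 to 41.03 for PROC and 2.85 to 19.94 for F2R, below that offset.

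Same-numbered arrays did not deviate together (r from -0.11 to 0.09). The replicate block left 2 members, PROC and PLAU, in place of 4 whose effects differ between time-points, and 3 (PROC, F2R and PLAU) in place of 4 called at 48 h. It also ended the 48 h call of PLAT (1.91, q = 0.0632). With 1 array left out in turn, 1 to 2 members were called at 24 h (1 without vit C replicate 2), 2 to 3 at 48 h (2 without UT replicate 2 or vit C replicate 1), 1 to 3 at 96 h (1, PROC, without vit C replicate 1), and 2 to 5 differed between time-points (2, PROC and PLAU, without UT replicate 2 at 8 h or either vit C array at 96 h). For UT cells at 96 h against 8 h it was 3 to 5, PLAU among them without UT replicate 1 at 8 h or replicate 2 at 96 h, and PROS1 at 48 h against 8 h was lost without any 1 of the arrays. The background moved more: 3363 genes were called at 96 h, 1000 after quantile normalization, 829 with normexp correction, and 479 to 5965 with 1 array left out. With dim probes left out, F2R at 96 h had no test. Depth of these arrays is signal over background: F2R and PROC lay near it on vit C arrays.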
